A study of Homo sapiens with 10 samples.

Results

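CDK9 with lysine 56 changed to alanine (K56A) was compared with wild-type CDK9 (WT) in HCT116 cells, a long-established line from a human colorectal carcinoma. The comparison rests on 4 of the 10 mRNA sequencing libraries of the study, 2 of K56A and 2 of WT, taken by their labels. In both lines CDK9 had been knocked down with an shRNA and then put back in 1 of these forms, and 2 further libraries of knockdown cells labelled EV stand beside them. The labels do not expand EV, no line without the knockdown stands in these tables, and the other 4 libraries of the study tested a DOT1L inhibitor. All cells grew in RPMI 1640 with 10% serum, RNA was taken with TRIzol, and libraries were made from 150 ng of total RNA with a TruSeq mRNA kit. The labels do not say whether a line is a clone or a pool, or whether its replicates are separate cultures, so each p-value speaks only to the spread among these libraries, and that spread may be technical.

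CDK9 is a cyclin-dependent kinase that pairs with a cyclin T to form the elongation factor P-TEFb. P-TEFb phosphorylates RNA polymerase II and the factors that hold it near the start of genes, and so lets the polymerase move into the gene body. It is kept inactive in a ribonucleoprotein built on 7SK RNA and is brought to genes by, among others, the super elongation complex. Genes that are switched on quickly, such as FOS, are textbook cases of control at this step. DOT1L, which methylates lysine 79 of histone H3, travels with elongating polymerase, and the title of the study places methylation of CDK9 by DOT1L in the repair of DNA breaks. The comparison of K56A with WT asks which RNA levels differ when lysine 56 is absent.

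The position that was changed is shown first, because it is the difference between the compared lines that their labels name. In the reference transcript of CDK9 (ENST00000373264, GRCh38, GENCODE 29), codon 56 of 372 lies in exon 2 of 7, at chr9:127786774-127786776 on the plus strand. It stands in capitals with 30 bases of coding sequence on each side, read across an exon junction.
CDK9 codon 56: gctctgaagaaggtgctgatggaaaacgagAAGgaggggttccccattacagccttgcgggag
AAG codes for lysine. The tables hold levels and no bases, so the change itself was not checked in these libraries.

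Levels are in FPKM, which counts sequenced fragments per kilobase and corrects for library size, summed over the transcripts of a gene. Their depth is unknown, since the tables hold no counts. Over the 11566 genes tested, log2 levels had r = 0.994 between the K56A replicates, 0.993 between the WT replicates and 0.993 to 0.994 between K56A and WT libraries, across genes. All 9 colon epithelial markers listed in the shared tables of the 15 chosen stood at 1 FPKM or more, and their summed level was 1983 to 1993 FPKM in K56A and 1890 to 1901 in WT. CDX1, CEACAM5, LGALS4, MUC2, TFF3 and VIL1 were not analysed here. Neither of the 2 listed haematopoietic markers reached 1 FPKM, and of 4 listed fibroblast and endothelial markers only COL1A1 did, at 36.2 and 34.5 FPKM in K56A and 34.1 and 33.1 in WT. In RNA of bulk cultures, fewer cells of a kind and less RNA per cell cannot be told apart.

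CDK9 was present at high levels in both lines and DOT1L was higher in K56A. CDK9 (ENSG00000136807) stood at 2611 and 2500.3 FPKM in K56A, against 3060.2 and 2976 in WT and 16.4 and 19.4 in EV. Both K56A libraries lay below both WT libraries, by 0.24 ± 0.07 (SE) on the log2(FPKM + 0.5) scale used for all fold changes here, and this difference did not pass (limma adjusted p = 0.220). As the reads were assigned, the gap lay outside the coding transcript. CDK9-201, the protein-coding transcript, stood at 753 and 750.4 FPKM in K56A and at 751 and 811 in WT, and these groups met at their edge. A processed transcript, CDK9-203, held 802 and 775 FPKM in K56A, against 1152 and 1134 in WT. The coding transcript made up 28.8% and 30.01% of CDK9 FPKM in K56A, 24.5% and 27.3% in WT, and 70.7% and 56.3% in EV. Native and introduced CDK9 RNA cannot be told apart in these levels, and how reads were shared among overlapping transcripts is not known. The split between transcripts is therefore uncertain.

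DOT1L (ENSG00000104885, chr19:2163933-2232578) stood at 733 and 703 FPKM in K56A, against 578 and 568 in WT and 324 and 343 in EV. Of the 11566 genes tested, ranked from the highest level per length, it stood at 64 and 66 in K56A, 91 and 94 in WT, and 182 and 181 in EV. The labels do not say whether DOT1L was also expressed from a construct in any of these lines, so native and introduced DOT1L RNA cannot be told apart here. The 3 groups did not overlap, and DOT1L rose by 0.32 ± 0.04 in K56A over WT (limma adjusted p = 0.0397). The gap sat in the full-length coding transcript DOT1L-201, at 586 and 544 FPKM in K56A and 416 and 412 in WT. The shorter coding transcript DOT1L-203 stood at 138 and 151 FPKM in K56A and 152 and 151 in WT. With trends of GC content and transcript length removed from each library, the DOT1L difference was 0.22 and no longer passed (adjusted p = 0.0547). The lines differ in DOT1L as well as in codon 56, and summed CDK9 RNA was lower in both K56A libraries, though not called. The part of each cannot be told apart in what follows. AMH and SF3A2 lie just downstream of DOT1L on chromosome 19. AMH, which encodes the anti-Müllerian hormone, held 95.5 and 89.4 FPKM in K56A and 68.8 and 69.1 in WT, and its log2 fold change of 0.42 ± 0.05 did not pass (adjusted p = 0.0533). SF3A2, a splicing factor subunit, had 0.23 ± 0.05 (adjusted p = 0.159). AP3D1 and PLEKHJ1, which overlap the ends of DOT1L on the other strand, had adjusted p of 0.518 and 0.633, and OAZ1 beyond AMH had 0.962. Only 15.7% and 11.1% of AMH FPKM in K56A and 10.9% and 12.8% in WT lay in its coding transcript, and the strand setting of the counting is not given in the sources used here.

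**Figure D1:**
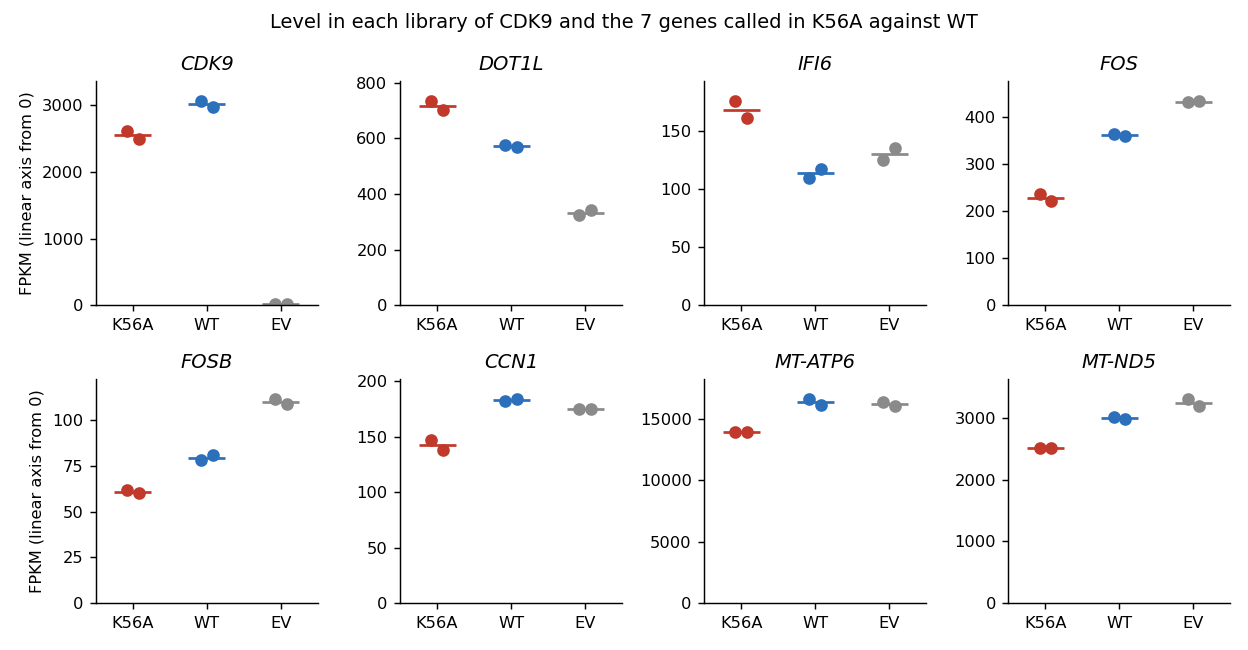
Levels of CDK9 and of the 7 genes called in K56A against WT, in FPKM on linear axes from 0, with 1 point per library and a bar at the mean of 2. FOS and FOSB step up across K56A, WT and EV, DOT1L steps down, and CDK9 is near 0 on its axis in EV, at 16.4 and 19.4 FPKM.

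K56A and WT differed at few genes and by small amounts. With limma over all 6 knockdown libraries and Benjamini-Hochberg adjustment at 0.05, 7 of 11566 genes were called (0.0605%), 2 higher in K56A (0.0173%) and 5 lower (0.0432%). The genes that rose were IFI6 and DOT1L. Those that fell were FOS, FOSB and CCN1, all switched on within minutes of a growth stimulus, and MT-ATP6 and MT-ND5 of the mitochondrial genome. The median absolute log2 fold change of all genes was 0.08, and 43 genes with a mean of at least 2 FPKM exceeded 0.5 in either direction. Before adjustment, p lay under 0.05 for 1006 genes on the higher side (8.7%) and 498 on the lower (4.31%). Each count of unadjusted p in a gene list below is to be read beside these shares, and each count of calls beside the 0.0605% of all genes. With levels scaled without the mitochondrially encoded genes, 1 gene was called higher and 8 lower, and the unadjusted counts turned to 560 higher and 944 lower. Both K56A libraries lay above both WT libraries for 3002 genes (26.0%) and below both for 2252 (19.5%). An exact permutation test of 2 libraries against 2 cannot give a two-sided p below 0.333, so all calls rest on the spread that limma shares across genes. FOS kept its call when any of the 4 libraries was left out, with adjusted p of 0.00342 and 0.00898 without K56A replicate 1 and 2, and 0.0254 and 0.0185 without WT replicate 1 and 2. The other 6 lost theirs without K56A replicate 1, K56A replicate 2, WT replicate 1 or WT replicate 2, with adjusted p from 0.129 to 0.375 and the same direction each time. In these fits 0 or 1 gene was called higher and 1 lower.

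**Figure D2:**
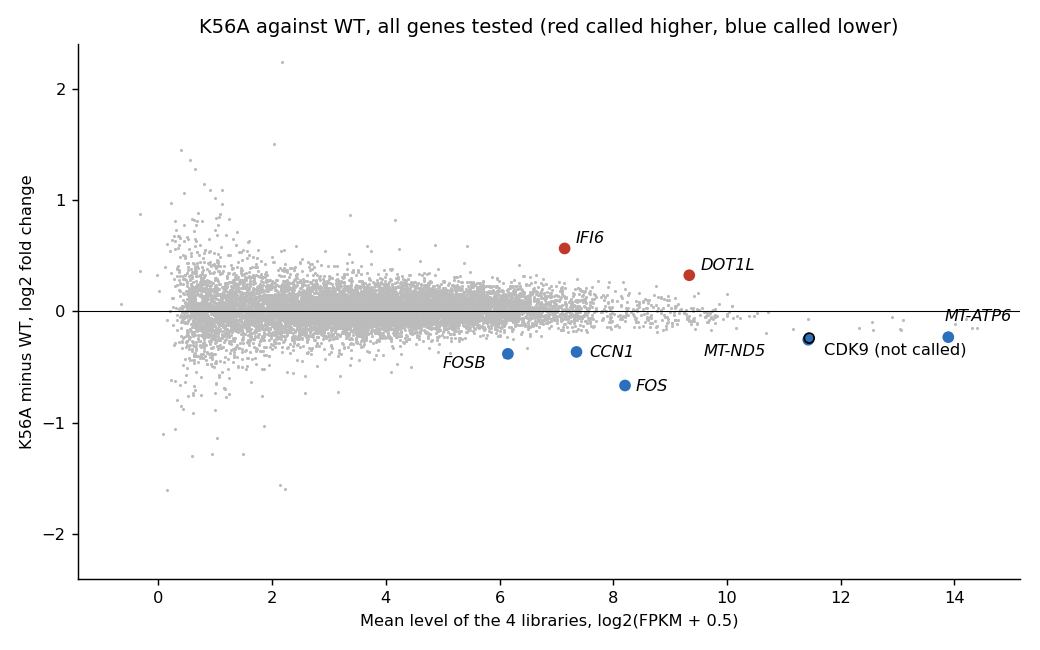
Each point is a gene, with the mean of the 4 K56A and WT libraries in log2(FPKM + 0.5) on the horizontal axis and the log2 fold change of K56A over WT on the vertical axis. The called genes lie at well expressed levels, the lowest of them FOSB with 61.7 and 60.2 FPKM in K56A and 78.2 and 81.0 in WT, and the spread of the grey points widens toward low levels.

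The genes of the AP-1 family and other immediate early genes gave the largest called fall. FOS and FOSB encode partners of JUN in the transcription factor AP-1. FOS (ENSG00000170345, chr14:75278826-75282230) stood at 235 and 221 FPKM in K56A, against 363 and 360.4 in WT and 432 and 433 in EV. All libraries of K56A were lowest and all of EV highest, and FOS fell by 0.67 ± 0.04 on the log2 scale in K56A, to 0.631 of its WT level (limma adjusted p = 0.00117). FOSB (ENSG00000125740) stood at 61.7 and 60.2 FPKM in K56A, against 78.2 and 81.0 in WT and 112 and 109 in EV, in the same order. FOSB fell by 0.38 ± 0.04 (adjusted p = 0.0329). CCN1 (ENSG00000142871), a secreted matrix protein that is also a target of the coactivator YAP, held 147 and 138 FPKM in K56A, against 183 and 184 in WT and 175 and 175 in EV. Both WT libraries were highest, K56A lay below WT and EV, and the fall was 0.36 ± 0.04 (adjusted p = 0.0329). Of CCN1 FPKM, 10.7% and 6.24% in K56A and 5.59% and 5.75% in WT lay in the coding transcript, CCN1-201. Most of the rest lay in transcripts annotated with retained introns. CCN1-201 itself did not fall, at 15.7 and 8.62 FPKM in K56A and 10.2 and 10.6 in WT, with overlap. The gap lay in retained-intron transcripts such as CCN1-206, at 47.3 and 45.8 FPKM in K56A and 70.1 and 71.8 in WT. FOS FPKM lay in coding transcripts for 88.4% and 89.7% in K56A and 90.6% and 88.8% in WT.

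The 250 bases before the start of FOS and of FOSB are shown because both genes fell together. They come from the RefSeq promoter table (GRCh38.p14). FOS lies at chr14:75278578-75278827 and FOSB at chr19:45467746-45467995, both on the plus strand. Capitals mark TGACGT, the core of the cAMP response element, and TATAAA, the TATA element.
FOS: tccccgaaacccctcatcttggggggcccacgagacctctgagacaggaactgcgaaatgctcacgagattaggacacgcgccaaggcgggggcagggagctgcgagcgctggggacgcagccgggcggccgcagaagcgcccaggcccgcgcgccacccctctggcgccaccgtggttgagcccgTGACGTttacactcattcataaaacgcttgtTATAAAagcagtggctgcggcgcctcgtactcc
FOSB: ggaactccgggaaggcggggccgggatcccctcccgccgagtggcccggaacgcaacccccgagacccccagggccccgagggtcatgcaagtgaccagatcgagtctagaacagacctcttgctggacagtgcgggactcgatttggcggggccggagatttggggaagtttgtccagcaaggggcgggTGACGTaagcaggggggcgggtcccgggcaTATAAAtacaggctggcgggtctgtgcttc
TGACGT begins 64 bases before the start of FOS and 60 before that of FOSB, and TATAAA begins 33 and 30 bases before, with no overlap. Over 35093 promoters in the table, searched on both strands from 250 bases before to 50 after the start, 7.98% held TGACGT and 11.5% held TATAAA. Of the 24 immediate early genes with a promoter there, 8 held TGACGT and 7 held TATAAA. The AP-1 site TGACTCA (4.95% of all promoters) and the CArG box of serum response factor (1.29%) had no match in either window. Bases farther upstream were not searched, so this does not show that either gene lacks such a site.

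Of 36 immediate early genes listed, 33 were measured, 3 fell and 0 rose with limma. Unadjusted p lay under 0.05 for 4 members on the higher side and 11 on the lower. Both K56A libraries lay below both WT libraries for 16 of the 33 (48.5%) and above both for 6 (18.2%), against 19.5% and 26.0% of all genes. The median log2 fold change of the list was -0.06, against 0.01 over all genes, and -0.11 with GC and length trends removed. After the called members, the smallest adjusted p belonged to NR4A1, HES1 and EGR2. NR4A1, an orphan nuclear receptor, held 82.1 and 76.2 FPKM in K56A and 99.2 and 99.8 in WT (-0.33 ± 0.05, adjusted p = 0.0661). HES1, a repressor downstream of Notch, held 30.2 and 29.9 FPKM in K56A and 38.9 and 39.3 in WT (-0.37 ± 0.05, adjusted p = 0.0701). EGR2, a zinc finger factor, held 7.36 and 7.54 FPKM in K56A and 9.34 and 9.86 in WT (-0.34 ± 0.08, adjusted p = 0.154). None of the 3 passed. Their groups do not overlap, and 19.5% of all genes lay below WT in the same way. With GC and length trends removed NR4A1 was called lower (-0.44, adjusted p = 0.0115), and HES1 and EGR2 were not (adjusted p = 0.0715 and 0.298). Another 4, picked after their values were seen, show that members lay on both sides. EGR1 had -0.14 ± 0.03 and JUN -0.22 ± 0.05, while the growth factor response gene MYC had 0.17 ± 0.04 and the mRNA decay factor ZFP36L1 had 0.21 ± 0.06, with adjusted p from 0.170 to 0.239.

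The feedback genes of ERK signalling and the ligands of the EGF receptor were examined beside them, since ERK drives many immediate early genes. Of 27 listed, 23 were measured and 0 passed with limma, with an unadjusted p under 0.05 for 1 on the higher side and 5 on the lower. K56A lay below WT without overlap for 9 (39.1%) and above for 5 (21.7%), against 19.5% and 26.0% of all genes. The list median was -0.01, and 0.01 over all genes. DUSP1, a phosphatase of MAP kinases and itself an immediate early gene, held 9.65 and 8.96 FPKM in K56A, against 12.02 and 13.5 in WT and 18.1 and 18.6 in EV. It had the order of FOS over the 3 groups, with no overlap, and its log2 fold change of -0.43 ± 0.08 did not pass (adjusted p = 0.114). DUSP5, a nuclear ERK phosphatase, stood at 49.8 and 50.1 FPKM in K56A, 55.6 and 55.0 in WT and 38.8 and 38.5 in EV (-0.14 ± 0.04, adjusted p = 0.234). Its K56A libraries thus lay between WT and EV. Of the others with the smallest adjusted p, SPRED1 had -0.34 ± 0.12, DUSP2 -0.16 ± 0.07, the EGF receptor inhibitor ERRFI1 -0.08 ± 0.03 and DUSP8 0.37 ± 0.14 (adjusted p from 0.293 to 0.359). The ligand AREG stood at 233 and 238 FPKM in K56A and at 233 and 236 in WT, with overlap. EREG, another ligand, stood at 162 and 170.1 FPKM in K56A and at 171 and 171 in WT.

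**Figure D3:**
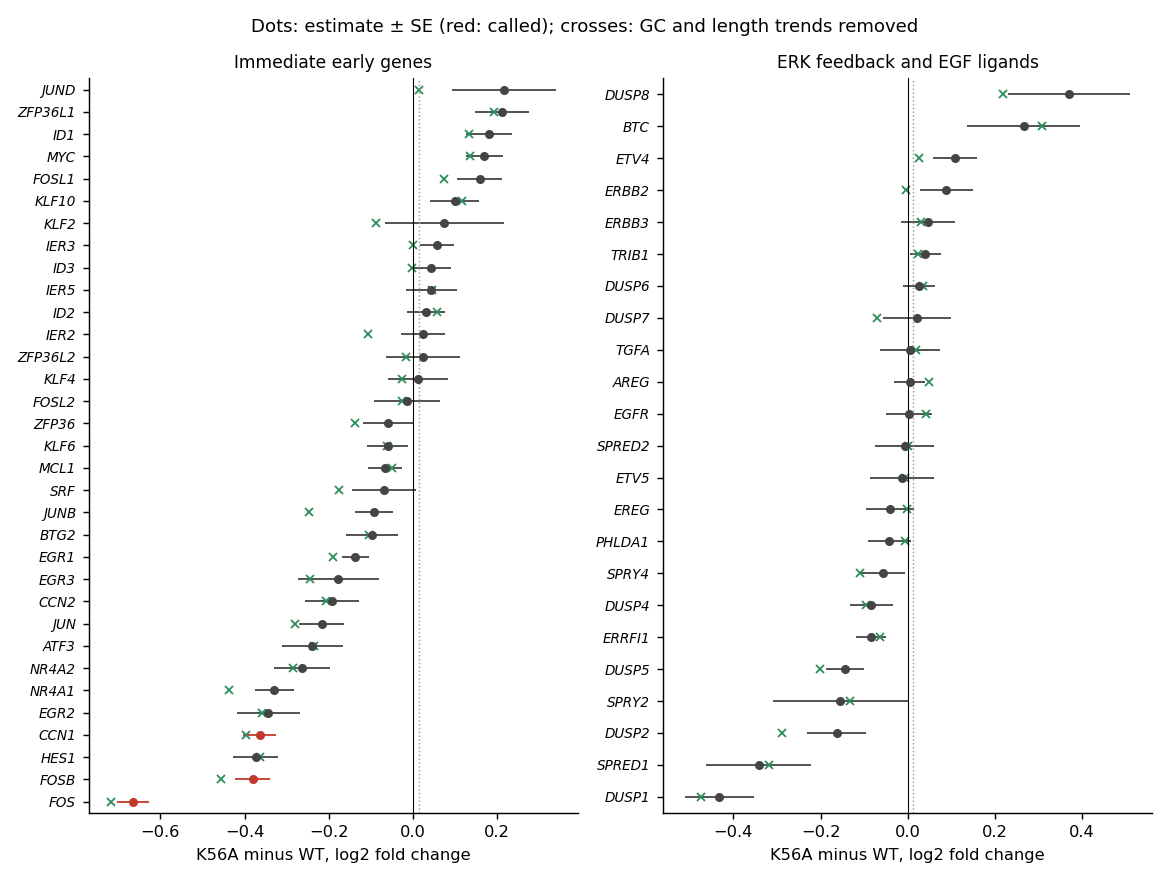
Log2 fold change of K56A over WT for the 33 immediate early genes and the 23 ERK feedback genes and EGF receptor ligands, as dots with SE bars, red where called. Crosses give the value with GC and length trends removed, and the dotted line marks the median of all genes, 0.01. FOS stands at the low end at -0.67, followed by FOSB at -0.38.

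Genes induced by interferon lay on the higher side. IFI6 (ENSG00000126709, chr1:27666064-27672212), which encodes a small membrane protein that protects cells from death and from viruses, stood at 175 and 161 FPKM in K56A, against 110 and 117 in WT and 125 and 135 in EV. Both K56A libraries lay above all others, and IFI6 rose by 0.56 ± 0.06, 1.48-fold over WT (limma adjusted p = 0.0329). All of its FPKM lay in coding transcripts, and its value with GC and length trends removed was 0.54. The 250 bases before its start are shown, from RefSeq (GRCh38.p14, chr1:27672193-27672442, minus strand, read along the gene), because they hold the letters that interferon-activated factors bind. Capitals mark GAAANNGAAA, the core of the interferon-stimulated response element, which reads TTTCNNTTTC on the other strand.
IFI6: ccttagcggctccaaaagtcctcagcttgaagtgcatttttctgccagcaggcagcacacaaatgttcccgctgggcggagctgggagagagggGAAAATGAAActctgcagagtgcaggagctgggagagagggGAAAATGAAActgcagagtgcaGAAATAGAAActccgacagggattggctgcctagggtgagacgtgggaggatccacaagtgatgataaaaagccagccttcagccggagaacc
The 3 matches begin 156, 115 and 93 bases before the start and do not overlap. The core was found in 3.58% of all promoters of the table, on either strand, and in 13 of the 17 interferon-stimulated genes that have a promoter there.

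Of 42 interferon-stimulated genes listed, 21 were measured, 1 rose and 0 fell with limma. Before adjustment, p lay under 0.05 for 5 on the higher side and 0 on the lower. Without overlap, K56A lay above WT for 14 of the 21 (66.7%) and below it for 0, against 26.0% and 19.5% of all genes. The median log2 fold change was 0.18, against 0.01 over all genes, and 0.14 with GC and length trends removed. ISG15, a ubiquitin-like modifier, held 116 and 104 FPKM in K56A, against 87.1 and 87.7 in WT and 82.4 and 87.8 in EV. IFI27, a mitochondrial membrane protein of the family of IFI6, held 32.6 and 36.5 FPKM in K56A, against 21.2 and 24.3 in WT and 20.6 and 16.8 in EV. In both genes K56A lay above WT and EV without overlap. Their log2 fold changes of 0.33 ± 0.06 and 0.59 ± 0.11 did not pass (adjusted p = 0.114 for each). With GC and length trends removed they were 0.21 for ISG15 and 0.57 for IFI27. IFIT1, which binds viral RNA, had 0.27 ± 0.10, IFI35 had 0.33 ± 0.15 and PARP9, an ADP-ribosyltransferase, had 0.19 ± 0.07 (adjusted p from 0.334 to 0.406). IRF9, which carries the interferon signal to the nucleus, stood at 24.2 and 26.2 FPKM in K56A and 23.4 and 23.7 in WT (adjusted p = 0.599).

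MHC class I and antigen processing genes, which interferon also induces, gave 0 calls with limma among 11 measured of 20, with an unadjusted p under 0.05 for 6 on the higher side and 1 on the lower. K56A lay above WT without overlap in 10 of the 11 (90.9%), against 26.0% of all genes. The median GC content of the list was 55.6%, and 27.7% of genes in the tenth around that value lay above WT in the same way. The other member was B2M, the light chain that all class I molecules share. HLA-C, a heavy chain, held 316 and 309 FPKM in K56A, against 256 and 263 in WT and 297 and 308 in EV (0.27 ± 0.03, adjusted p = 0.0568). B2M held 407 and 409 FPKM in K56A, against 449 and 481 in WT and 520.0 and 535 in EV (-0.19 ± 0.04, adjusted p = 0.143). HLA-C and B2M thus lay on opposite sides of WT. Their transcripts have 60.4% and 40.1% GC, and the difference between K56A and WT moved with GC content over all genes. With GC and length trends removed, the values were 0.18 for HLA-C and -0.12 for B2M (limma adjusted p = 0.168 and 0.559). The peptide transporter subunit TAP1 had 0.23 ± 0.06, its partner TAPBP 0.22 ± 0.05 and the chaperone CALR 0.16 ± 0.03 (adjusted p from 0.137 to 0.171). The list median was 0.10, and 0.07 with GC and length trends removed. HLA genes are near-identical in part, so their reads may have been split between them and their values are uncertain.

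RNAs of the mitochondrial genome lay on the lower side. This genome encodes 13 subunits of the respiratory chain and of ATP synthase, and all 13 were measured. MT-ATP6, a subunit of ATP synthase, stood at 13979 and 13983 FPKM in K56A, against 16648 and 16177 in WT and 16408 and 16085 in EV. MT-ND5, a subunit of complex I, stood at 2515 and 2512 FPKM in K56A, against 3013 and 2984 in WT and 3304 and 3194 in EV. In both, K56A lay below WT and EV without overlap. MT-ATP6 fell by 0.23 ± 0.02 and MT-ND5 by 0.25 ± 0.03 (limma adjusted p = 0.0297 for each). Overall 2 of the 13 fell, 0 rose, and 11 had an unadjusted p under 0.05 on the lower side and 0 on the higher. Both K56A libraries lay below both WT libraries for 12 of 13 (92.3%), against 19.5% of all genes. The log2 fold changes ran from -0.37 ± 0.06 for MT-ND6, which is encoded on the other strand from the rest, to -0.05 ± 0.02 for MT-CYB, which encodes cytochrome b. MT-ND2 had -0.16 ± 0.02, MT-CO3 -0.14 ± 0.02 and MT-ATP8 -0.17 ± 0.03 (adjusted p from 0.0647 to 0.114). The genome took 25.4% and 25.6% of FPKM in K56A, against 27.7% and 27.2% in WT and 27.9% and 27.6% in EV. The list median was -0.15 and became -0.19 when levels were scaled without these genes. It became -0.09 with GC and length trends removed, where the direction of all named members was as before.

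Nuclear genes of the same chain and of the ribosome showed smaller shifts. Of 73 measured nuclear subunits of oxidative phosphorylation out of 75, 0 passed with limma, with an unadjusted p under 0.05 for 6 on the higher side and 11 on the lower. Their median was -0.02, and NDUFS4 of complex I had the smallest adjusted p (-0.25 ± 0.05, adjusted p = 0.146). Of 79 cytosolic ribosomal protein genes, all measured, 0 passed with limma. Unadjusted p lay under 0.05 for 23 on the lower side and 0 on the higher, against 4.31% and 8.7% of all genes. K56A lay below WT without overlap for 52 of the 79 (65.8%), against 19.5% of all genes. The share of all genes below WT moved with GC content, and RPS3A and RPL21 have 44.0% and 45.4% GC. In 10 equal bins of genes by GC content, the bins that hold these values had 31.7% and 28.2% below WT without overlap. The list median was -0.05, and -0.03 with GC and length trends removed, where RPS3A and RPL21 were both at -0.11. RPS3A, a protein of the small subunit, stood at 652 and 660 FPKM in K56A, against 733 and 733 in WT and 631 and 645 in EV (-0.16 ± 0.03, adjusted p = 0.114). RPL21 of the large subunit had 445 and 443 FPKM in K56A, against 496 and 499 in WT and 435 and 452 in EV (-0.16 ± 0.03, adjusted p = 0.121). For RPS3A, WT lay above both other groups. Ribosomal protein genes have many processed pseudogenes that can share their reads, so these levels are uncertain.

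**Figure D4:**
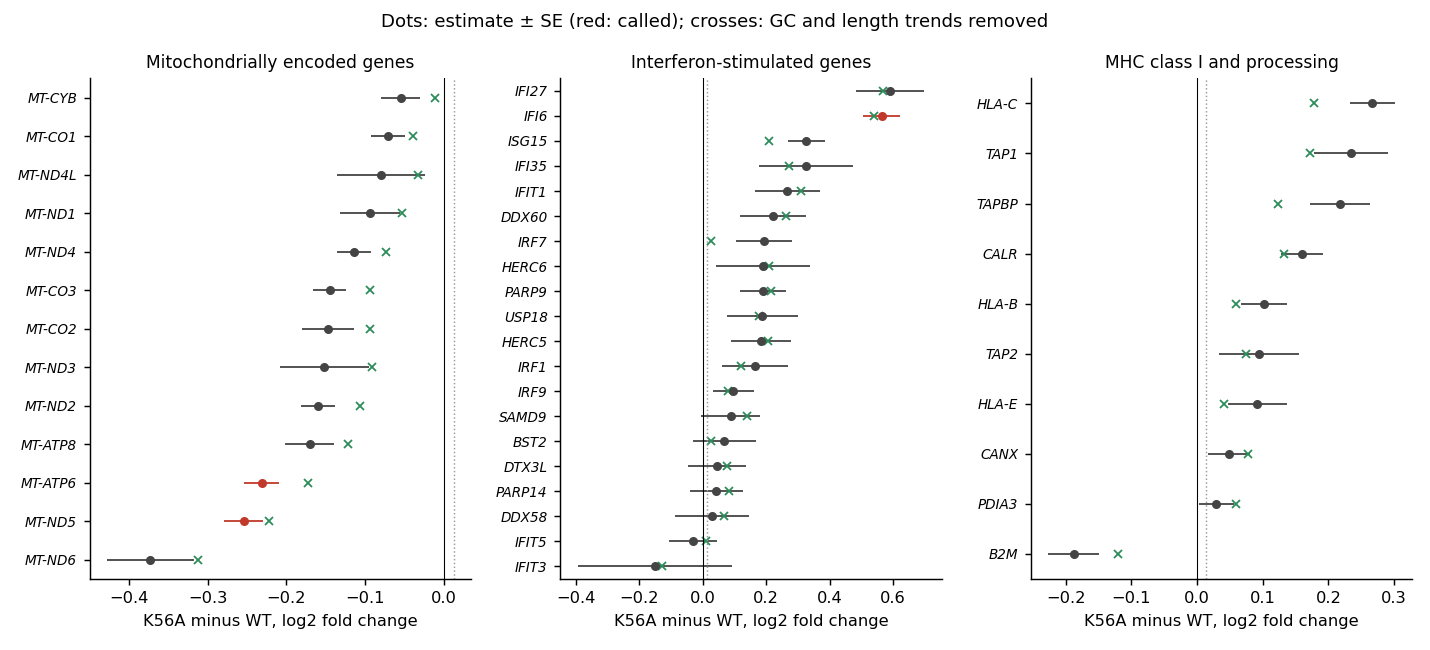
Log2 fold change of K56A over WT for the mitochondrially encoded, interferon-stimulated and MHC class I genes plotted, as dots with SE bars, red where called, with crosses for the value after removal of GC and length trends. All 13 mitochondrial genes lie left of 0, from -0.37 to -0.05, and of the interferon-stimulated genes plotted only IFIT5 and IFIT3 lie left of it.

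The partners of CDK9 were measured close to their WT levels. Of 21 genes of P-TEFb, the 7SK particle and their regulators, 19 were measured and 0 passed with limma, with an unadjusted p under 0.05 for 0 on the higher side and 2 on the lower. K56A lay above WT without overlap in 5 (26.3%) and below in 3 (15.8%), near the 26.0% and 19.5% of all genes. After CDK9, the smallest adjusted p was that of CCNT1, cyclin T1, at 17.3 and 17.3 FPKM in K56A, against 20.4 and 19.9 in WT and 21.3 and 17.5 in EV (-0.22 ± 0.09, adjusted p = 0.352). The other 17 ran from -0.06 ± 0.03 for the splicing factor SRSF1 to 0.13 ± 0.10 for cyclin T2 (CCNT2). They include HEXIM1, the protein that holds P-TEFb inactive on 7SK RNA, at 25.7 and 25.6 FPKM in K56A and 24.5 and 23.8 in WT. MEPCE, which caps 7SK RNA, held 14.03 and 13.7 FPKM in K56A and 12.2 and 13.8 in WT. The other members reported here were the scaffolds AFF1 and AFF4, the cyclin CCNK, the phosphatase subunits PPM1G, PPP1CA and PPP1CB, SRSF2, the helicase DDX21, the methyltransferase PRMT5, JMJD6, NUP98 and ZNF335, with adjusted p from 0.536 to 0.999.

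DOT1L was the only called gene of its own list. Of 15 genes of the DOT1L complex and readers of its mark, 11 were measured, 1 rose and 0 fell with limma, with an unadjusted p under 0.05 for 2 on the higher side and 1 on the lower. SKP1, an adaptor found with DOT1L, held 126 and 136 FPKM in K56A and 145 and 149 in WT (-0.17 ± 0.05, adjusted p = 0.199). BAG6 held 113 and 108 FPKM in K56A and 100.2 and 102 in WT (0.12 ± 0.04, adjusted p = 0.279). The DOT1L partners MLLT10, MLLT6, MLLT1 and MLLT3, with RNF40, UBE2A, TRRAP and CTNNB1, had adjusted p from 0.528 to 0.956. Among 30 measured pausing factors and super elongation complex members of 32, 0 passed with limma, with an unadjusted p under 0.05 for 5 on the higher side and 1 on the lower, and the median was 0.00. INTS1, the largest subunit of Integrator, had 0.21 ± 0.06 (adjusted p = 0.181) and 0.05 with GC and length trends removed. ENY2, of the export and SAGA complexes, had -0.21 ± 0.06 (adjusted p = 0.200). INTS11, ELL, NELFA and SUPT5H had adjusted p from 0.270 to 0.353.

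DNA repair genes, which the title of the study concerns, gave 0 calls in any of 4 lists with limma. Only 0.0605% of all genes were called, so 0 calls in lists of this size say little. For homologous recombination and the Fanconi anaemia pathway, 35 of 48 genes were measured. Unadjusted p lay under 0.05 for 5 on the higher side and 0 on the lower, against 8.7% and 4.31% of all genes. RECQL4, a helicase, held 118 and 120.2 FPKM in K56A, against 98.0 and 97.4 in WT and 103 and 102 in EV. Its groups did not overlap, and its log2 fold change of 0.29 ± 0.04 missed the threshold (adjusted p = 0.0568) and was 0.13 with GC and length trends removed. RAD54L, which remodels the recombination filament, had 0.33 ± 0.11 (adjusted p = 0.291). MUS81, EME1, FANCA and FANCM had adjusted p from 0.312 to 0.472. For non-homologous end joining, 19 of 25 were measured, with an unadjusted p under 0.05 for 2 on the higher side and 1 on the lower. POLL, a gap-filling polymerase, held 22.8 and 23.7 FPKM in K56A, against 17.6 and 19.4 in WT and 22.9 and 23.1 in EV (0.32 ± 0.07, adjusted p = 0.140), so that its K56A and EV libraries lay together above WT. PAXX, a scaffold of the joining complex, had 0.22 ± 0.05 (adjusted p = 0.172). For break signalling and checkpoints, 32 of 34 were measured, with an unadjusted p under 0.05 for 2 on the higher side and 3 on the lower, and the acetyltransferase KAT5 had the smallest adjusted p (0.20 ± 0.05, adjusted p = 0.201). For base and nucleotide excision repair, 28 of 36 were measured, with 1 and 3 in the same count, and DNA ligase LIG1 came first (0.24 ± 0.05, adjusted p = 0.129). The 4 medians lay between -0.02 and 0.02, against 0.01 over all genes.

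Since only 2 genes rose, the 5 smallest p-values on the higher side are given, which adds AMH, RECQL4 and CHTF18 to IFI6 and DOT1L. CHTF18, a loader of the replication clamp, held 94.3 and 96.9 FPKM in K56A, against 77.8 and 75.4 in WT and 80.7 and 80.9 in EV (0.32 ± 0.04, adjusted p = 0.0568). AMH, RECQL4 and CHTF18 did not overlap between groups and did not pass. All 3 have GC-rich transcripts, at 71.5%, 65.1% and 65.8% GC, and with GC and length trends removed their log2 fold changes were 0.19, 0.13 and 0.15.

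The difference between K56A and WT moved with GC content over the whole transcriptome. In 10 equal bins of the 11468 genes with a known GC content, the median log2 fold change was -0.05 in the lowest bin, at a median of 38.7% GC, and 0.15 in the highest, at 64.1% GC. Across genes, fold change and GC content had r = 0.384. K56A lay above WT without overlap for 7.58% of genes in the lowest bin and 63.7% in the highest, and below it for 31.5% in the lowest and 1.83% in the highest. Between single libraries, r of the log2 difference with GC ran from 0.225 to 0.331 over the 4 pairs of K56A with WT. Between replicates it was 0.128 in K56A, 0.0060 in WT and -0.156 in EV, so a trend of a smaller size also stood between replicates. Of the called genes, FOS, FOSB and CCN1 lay against this trend, and their log2 fold changes with it removed were -0.72, -0.46 and -0.40. For MT-ATP6 and MT-ND5 the values with it removed were -0.17 and -0.22. Length of the transcript had r = -0.019 with the fold change. What GC content stands for in these libraries was not tested.

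**Figure D5:**
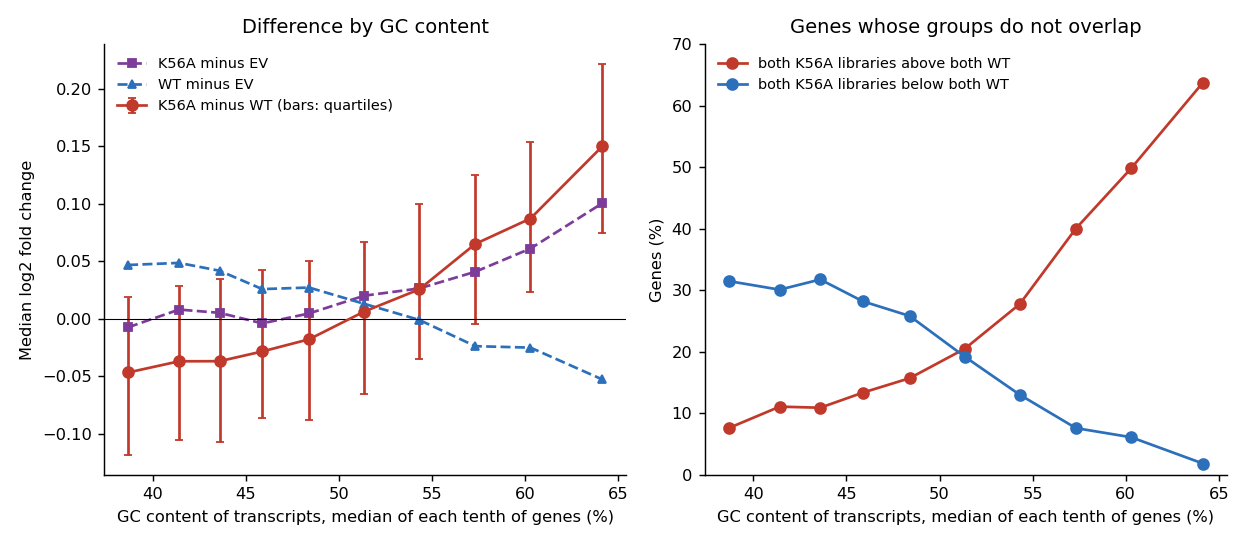
Left, median log2 fold change in 10 bins of genes by GC content of their transcripts in percent, for K56A over WT with quartile bars and for K56A and WT each over EV, which share the EV libraries. Right, percent of genes in each bin whose K56A libraries both lie above (red) or below (blue) both WT libraries, with 63.7% above in the highest bin against 7.58% in the lowest.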

How the data were processed

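RNA was measured by mRNA sequencing in 2 libraries each of K56A, WT and EV. The authors deposited FPKM per transcript in 2 tables, each holding the EV libraries beside WT or K56A. RSEM 1.3.3, STAR 2.7.1a, DESeq2 1.32.0, Trim Galore 0.6.6 and build GRCh38 are named, without roles, per the submitters' processing notes. The annotation release is not given in the sources used here.

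The 69086 transcripts in both tables were kept, K56A columns were multiplied by 1.0007, the mean ratio of the shared EV columns, and FPKM were summed per gene. Of 13850 genes with at least 1 FPKM in at least 2 of 6 libraries, 2284 with over 5% of their FPKM in transcripts of 1 table were left out, which removes some list members. The remaining 11566 were tested on log2(FPKM + 0.5), which understates changes of low genes, with limma 3.58.1 (R 4.3.3), an intensity trend, group means for all 6 libraries, and a two-sided test with Benjamini-Hochberg adjustment at 0.05. The method was tested on simulated data with independent noise in each gene and library. Those data held no trend with GC content, so that test does not speak to the trend seen here. Plots used matplotlib 3.10.9 and numpy 2.4.6 with pandas 2.3.3 in Python 3.11.15. GC content and length came from GENCODE 29 transcripts for 11468 genes, and their trends were removed per library in 2 of 19 alternatives. Depth is unknown. Ratios of low values that recur between libraries put them at 0.842 to 1.18 times WT replicate 1.

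Named genes are CDK9, DOT1L, the called genes, the 5 smallest p-values where fewer passed in a direction, in each list up to 6 members by adjusted p, and all of the P-TEFb and DOT1L lists; some list members are counted but not reported here by name. Other genes were chosen after their values were seen. The members and the 40 gene lists were chosen with earlier results of these data known, so counts over a list describe it and were not tested. Same-numbered replicates of K56A and WT did not deviate together (r = -0.033 across genes), so no pairing was used.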

Additional observations from a re-analysis of the deposited data

How the results depend on the processing

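No alternative reversed the direction of a called gene. Of 19 alternatives, FOS passed in 18 (not with limma without a trend, adjusted p = 0.432), MT-ATP6 and MT-ND5 in 13 each, CCN1, FOSB and IFI6 in 12 each, and DOT1L in 9. Beside 2 genes higher and 5 lower, the counts were 0 and 1 with no filter on low values, 12 and 9 with a mean of at least 5 FPKM, 5 and 14 with the 4 K56A and WT libraries alone, and 0 and 3 with the replicate number as a block, which the deviations do not bear out as a pairing. They were 1 and 8 when scaled without mitochondrially encoded genes, 12 and 18 with all transcripts of either table, 0 and 0 with no trend in limma (unadjusted p under 0.05 for 795 and 417), and 6 higher with robust moderation. With GC and length trends removed they were 1 and 6, and 1 and 7 with the replicate block as well. Leaving out 1 library gave 0 to 1 higher and 1 lower each time, the lone library being assumed to vary like the other groups. Fewer or more genes tested and fewer libraries enter some of these counts, and the cause of the other shifts was not tested. With 2 libraries a group and no counts, small differences of low genes cannot be resolved.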

Other observations

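Genes named here from other gene groups, not described above, did not pass. PDCD4, an inhibitor of translation and a tumour suppressor, was picked after its values were seen and held 12.6 and 14.2 FPKM in K56A, against 19.3 and 20.04 in WT and 14.6 and 15.3 in EV. Its log2 fold change was -0.54 ± 0.08 (limma adjusted p = 0.0661), and WT stood apart from both other groups. VEGFA, the angiogenic growth factor, had 41.6 and 40.6 FPKM in K56A, against 32.5 and 33.7 in WT and 36.1 and 39.2 in EV (0.31 ± 0.06, adjusted p = 0.114). TGFB1, a secreted regulator of growth and matrix, had 28.3 and 27.7 FPKM in K56A and 23.2 and 20.7 in WT (0.34 ± 0.07, adjusted p = 0.143). Among 29 measured genes of cholesterol and fatty acid synthesis, 0 passed with limma, with an unadjusted p under 0.05 for 2 on the higher side and 3 on the lower. The cholesterol carrier STARD4 held 6.12 and 5.93 FPKM in K56A and 8.43 and 8.09 in WT (-0.42 ± 0.08, adjusted p = 0.137). The isomerase IDI1 had -0.42 ± 0.10 and INSIG1, which retains sterol regulators in the endoplasmic reticulum, -0.25 ± 0.08 (adjusted p = 0.170 and 0.240). These 3 genes had lower levels in both K56A libraries than in both WT libraries, and none passed. FASN and TM7SF2 lay on the higher side without overlap, as did 26.0% of all genes. FASN, the fatty acid synthase, held 185 and 184 FPKM in K56A and 164 and 161 in WT (0.18 ± 0.04, adjusted p = 0.143). The sterol reductase TM7SF2 had 0.17 ± 0.07 (adjusted p = 0.361). With GC and length trends removed, FASN was at 0.02 and TM7SF2 at 0.08.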
